A study of Mus musculus with 6 samples.

Results

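The genes described here encode plasma proteins that the fetal liver and the yolk sac secrete. They are albumin (Alb), alpha-fetoprotein (Afp), fetuin-A (Ahsg), transferrin (Trf), transthyretin (Ttr), retinol-binding protein (Rbp4), the apolipoproteins Apoa1, Apoa2 and Apob, and the fibrinogen beta chain (Fgb). The set holds 10 of the 19933 genes that the array names singly, and each was read by 1 transcript cluster, the unit of probes that gives 1 value per array. The genes were chosen because Alb, Afp and Ahsg had been seen to be higher in knockout hearts. The differences between the groups are therefore given for all 10 as a description, with no test.

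The samples were embryonic mouse hearts of stage E12.5, 3 labelled wild type (WT) and 3 labelled knockout (KO) for β1 integrin, the shared beta chain of many matrix receptors. Both groups were taken at the same age, and no treatment is named. Neither the strain, the Cre driver or the deleted cells, nor whether hearts were pooled, is given in the sources used here. Values are log2 signals of Affymetrix Mouse Gene 1.0 ST arrays, 1 array per sample.

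Plasma proteins of this class are made by hepatocytes of the fetal liver and, earlier, by the visceral endoderm of the yolk sac, under liver-enriched transcription factors such as HNF1, HNF4 and C/EBP. Albumin and alpha-fetoprotein belong to 1 gene family and lie next to each other, and alpha-fetoprotein is the more fetal of the pair. The heart muscle is not known as a main source of these proteins.

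The promoters of the 3 genes that led to the choice are shown with that of Fgb, a gene of the same class without a difference between the groups. Each stretch is the 150 bases before the RefSeq gene start in build GRCm38.p6, 5′ to 3′ on the gene's strand. Capitals mark letters that match a searched motif on either strand.
Alb, chr5:90460720-90460869, plus strand: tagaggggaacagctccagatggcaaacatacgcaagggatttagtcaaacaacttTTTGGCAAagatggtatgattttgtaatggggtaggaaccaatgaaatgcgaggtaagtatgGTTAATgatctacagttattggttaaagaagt
Afp, chr5:90490564-90490713, plus strand: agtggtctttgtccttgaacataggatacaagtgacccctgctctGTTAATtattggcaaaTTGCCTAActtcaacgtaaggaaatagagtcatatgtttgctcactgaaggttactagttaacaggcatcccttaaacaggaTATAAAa
Ahsg, chr16:22891865-22892014, plus strand: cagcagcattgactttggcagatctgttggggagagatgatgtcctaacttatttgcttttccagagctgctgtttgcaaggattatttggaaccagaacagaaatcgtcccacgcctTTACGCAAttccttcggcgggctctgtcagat
Fgb, chr3:83049864-83050013, minus strand: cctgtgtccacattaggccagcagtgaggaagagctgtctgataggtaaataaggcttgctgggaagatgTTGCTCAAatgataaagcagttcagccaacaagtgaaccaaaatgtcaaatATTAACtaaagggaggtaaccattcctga

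The motifs searched on both strands were GTTAAT, the core of 1 arm of the HNF1 site, CAAAGTCCA for HNF4, TGTTTAC for FOXA factors, TTGCNNAA for C/EBP factors and TATAAA for the TATA box. The search covered 10 windows of 8 of the genes, in the 250 bases before each start. Trf and Ttr were left out of it, so the member counts do not cover them. The C/EBP letters stood in 7 of the 10 windows, those of Alb, Afp, Ahsg, Apob and Fgb and 1 each of Apoa2 and Rbp4, against 9.56% of all 32851 windows. The HNF1 letters stood in the windows of Alb, Afp and Fgb, against 6.43% of all windows. Alb had these letters from -32 to -27 and Fgb from -29 to -24 relative to the start, and Afp had it from -105 to -100. The FOXA letters stood in 1 window of Apoa2 and 1 of Rbp4 (3.17% of all), the TATA letters in 4 windows (12.4%), and the HNF4 letters in 0 of the 10 (0.384%). None of the marked matches overlapped another.

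**Figure D1:**
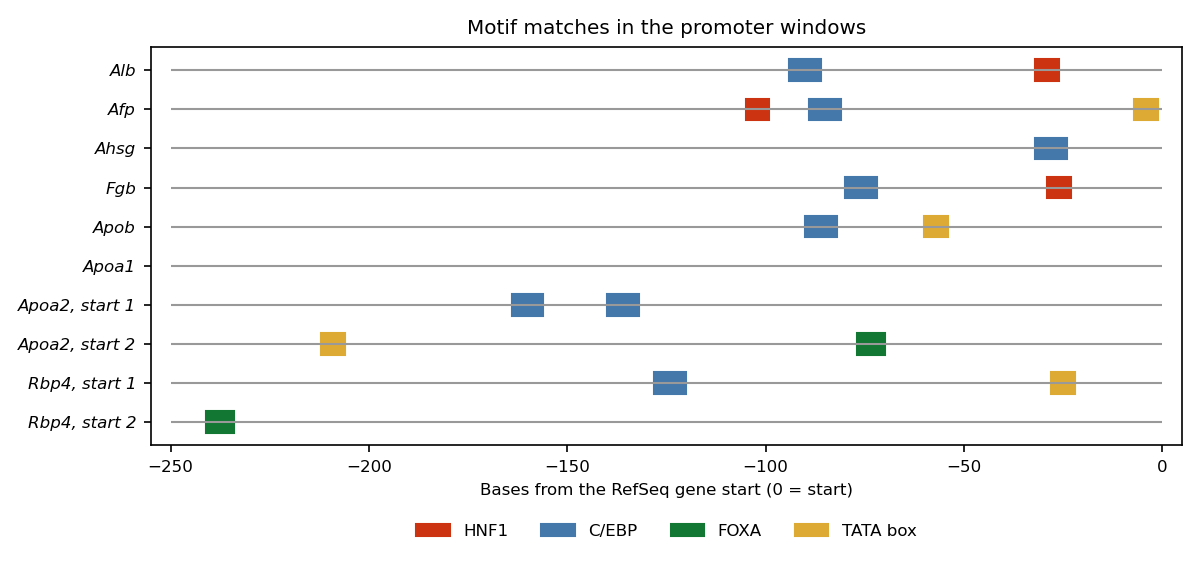
Motif matches in the 250 bases before each RefSeq start (x axis: bases from the start; coloured boxes: matches, to scale). Apoa2 and Rbp4 have 2 starts each. Alb, Afp and Fgb each hold an HNF1 and a C/EBP match, and the Apoa1 window holds no match.

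Alb, which carries fatty acids, hormones and metals in plasma, had the largest difference of the set. Its signal was 4.38, 4.89 and 5.13 in WT replicates 1 to 3 and 5.83, 6.14 and 7.15 in KO replicates 1 to 3. All KO hearts lay above all WT hearts, and the highest WT and lowest KO heart were 0.70 apart. The means were 4.80 ± 0.38 (SD, n = 3) in WT and 6.37 ± 0.69 (SD, n = 3) in KO hearts, a difference of 1.57 ± 0.34 (log2, SE) or 2.98-fold. With the 19933 genes ordered from the highest to the lowest KO minus WT difference, Alb had rank 3, Afp 14 and Ahsg 184. Single KO hearts stood 2.04, 2.53 and 5.11 times above the WT mean, so KO replicate 3 was the highest by far. Without that heart the difference was 1.18.

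Afp, which takes albumin's place as a carrier in the fetus, had a similar pattern. Its signal was 5.62, 5.31 and 5.47 in WT and 6.16, 6.40 and 7.44 in KO replicates 1 to 3. The groups did not overlap, and KO replicate 3 was again the highest. The means were 5.47 ± 0.16 (SD, n = 3) and 6.67 ± 0.68 (SD, n = 3), a difference of 1.20 ± 0.30 (log2, SE) or 2.30-fold, and 0.82 without KO replicate 3. The 3 KO hearts came in the same order for Alb and Afp, with replicate 1 lowest and replicate 3 highest, but the WT hearts did not. Afp minus Alb was 0.33, 0.27 and 0.29 in the KO hearts, against 1.24, 0.42 and 0.34 in WT replicates 1 to 3. The 2 transcripts' signals thus moved almost in parallel among the KO hearts. This pair of differences compares the same 2 probe sets between hearts and is no ratio of transcript amounts.

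Ahsg, which encodes fetuin-A, a plasma protein that binds calcium phosphate, varied less among the KO hearts than Alb and Afp. Its signal was 4.92, 4.83 and 5.05 in WT and 5.34, 5.53 and 5.37 in KO replicates 1 to 3. The groups did not overlap, and the KO hearts lay within 0.19 of each other, so KO replicate 3 did not stand apart as it did for Alb. The difference was 0.48 ± 0.10 (log2, SE), or 1.40-fold.

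Among the other carriers, Trf, the iron carrier of plasma, was the brightest probe set of the 10. It read 7.94, 7.76 and 7.70 in WT and 8.04, 8.08 and 8.06 in KO replicates 1 to 3. The KO hearts all lay above the WT hearts by a gap of 0.10, and they lay within 0.04 of each other. The difference was 0.26 ± 0.09 (log2, SE), or 1.20-fold. Rbp4, which carries retinol, read 5.72, 5.67 and 5.82 in WT and 6.15, 6.14 and 5.88 in KO replicates 1 to 3. Its groups were separate by only 0.06, and KO replicate 3, the highest heart for Alb, was the lowest KO heart here. The difference was 0.32 ± 0.10 (log2, SE). Ttr, which carries thyroxine and holds Rbp4 in plasma, read 5.28, 5.50 and 5.49 in WT and 5.51, 5.65 and 5.36 in KO replicates 1 to 3. Here the groups overlapped, and the difference of 0.09 ± 0.11 (SE) was no larger than its error.

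**Figure D2:**
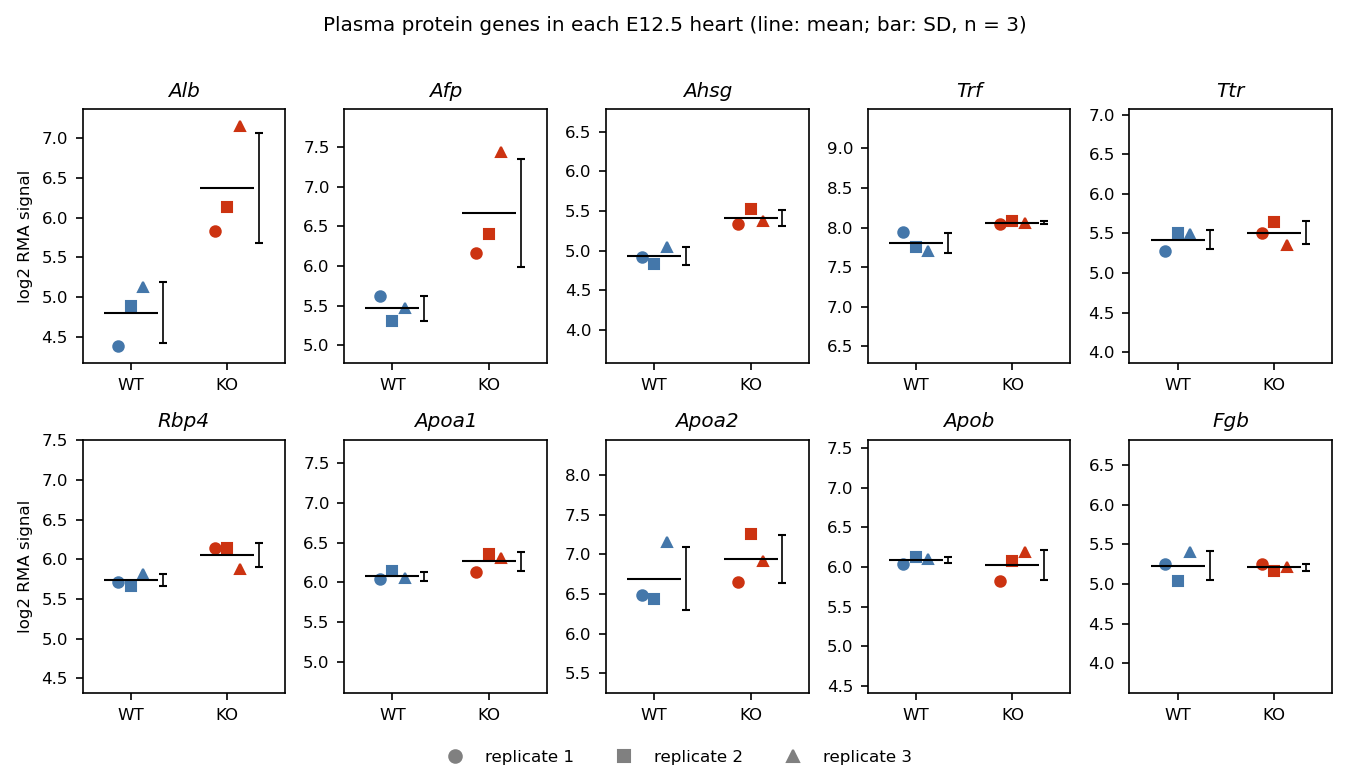
Log2 RMA signal (y axis, 3.2 units tall in every panel) of each gene in 3 wild-type (blue) and 3 knockout (red) hearts, with the group mean (line) and SD (bar, n = 3). The groups are separate for Alb, Afp, Ahsg, Trf and Rbp4, and knockout replicate 3 is by a wide margin the highest heart for Alb (7.15) and Afp (7.44).

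The apolipoproteins overlapped between the groups. Apoa1, the main protein of high-density lipoprotein, read 6.04, 6.14 and 6.05 in WT and 6.13, 6.36 and 6.31 in KO replicates 1 to 3. Only KO replicate 1 lay within the WT range, just under its top, and the difference was 0.19 ± 0.09 (log2, SE). Apoa2, the second protein of these particles, read 6.49, 6.44 and 7.15 in WT and 6.65, 7.25 and 6.92 in KO replicates 1 to 3. Its spread within each group was larger than the difference of 0.25 ± 0.22 (SE), which was 0.48 without WT replicate 3 and 0.09 without KO replicate 2. Apob, the structural protein of very-low-density lipoprotein, read 6.04, 6.12 and 6.10 in WT and 5.82, 6.07 and 6.19 in KO replicates 1 to 3. Its difference was -0.06 ± 0.11 (SE), with KO hearts on both sides of the WT hearts.

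Fgb, a chain of the clotting protein fibrinogen, gave no difference. It read 5.25, 5.04 and 5.40 in WT and 5.25, 5.16 and 5.22 in KO replicates 1 to 3, so the KO hearts lay inside the WT range. The difference was -0.02 ± 0.11 (SE). Fibrinogen needs the products of Fga and Fgg as well. Fga, at 5.25 ± 0.17 (SD, n = 3) in WT and 5.04 ± 0.18 (SD, n = 3) in KO hearts, and Fgg, at 4.10 ± 0.10 and 4.20 ± 0.14 (SD, n = 3), overlapped between the groups too.

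In all, 8 of the 10 genes had a higher mean in KO hearts, as did 44.0% of all genes, and 2 had a lower one. In 5 of 10, Alb, Afp, Ahsg, Trf and Rbp4, every KO heart lay above every WT heart, which was so for 4.95% of all genes. In 0 of 10 did every KO heart lie below, against 7.18% of all genes. A KO mean over 1.5-fold higher was seen for Alb and Afp, 2 of 10, against 0.562% of all genes. As the set was chosen on this contrast, these shares are not read against the background. The median difference was 0.26 over the 10 genes, 0.19 over the 7 without Alb, Afp and Ahsg, and -0.02 over all genes. By role, all 6 carriers had higher KO means, with 5 of them separate, while 2 of 3 apolipoproteins had, with 0 separate. The carriers include the 3 genes behind the choice, and without these Trf, Ttr and Rbp4 remain, so the roles cannot be compared. The lower and upper 5% of all genes began at differences of -0.24 and 0.24.

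In limma's test over all 28767 clusters, 0 clusters (0.0%) passed a Benjamini-Hochberg adjusted p of 0.05, and the smallest adjusted p was 0.601. Without adjustment, 1705 of the 28767 clusters had a limma p under 0.05. Counted by gene, 2.07% were higher and 2.91% lower at this threshold. No difference at all would give a share of about 0.05 over both directions together. Itgb1 itself read 11.76, 11.80 and 11.78 in WT and 11.53, 11.42 and 11.65 in KO replicates 1 to 3, which left 84.0% of the WT signal. The position of its probes relative to the deleted part is not given, so they may check nothing. The 6 array medians lay between 6.65 and 6.71. All 20 cardiomyocyte markers measured were bright, with list means of 12.26 to 12.42 in the 6 hearts. Of these, 6 had higher and 14 lower KO means, with a median difference of -0.08 (-0.03 without KO replicate 1). Every KO heart lay below every WT heart for 3 of the 20, against 7.18% of all genes, and above for 1, against 4.95%. KO replicate 1 stood apart in blood cell genes, as described below.

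Most of these probe sets were dim. As a reference for dim signal, the 1209 clusters of olfactory and vomeronasal receptor genes, which serve sensory neurons, had a median of 4.04 and a 95th percentile of 5.76. The WT mean of Alb lay above 77.2% of them and that of Ahsg above 80.4%. In KO hearts the Alb mean lay above 98.8% and the Afp mean above 99.5% of them, but the Ahsg mean above 91.0%. In WT hearts, Alb, Afp, Ahsg, Ttr, Rbp4 and Fgb were under the 95th percentile of this reference, while Trf, Apoa1, Apoa2 and Apob were over it. Alb, Afp and Rbp4 had KO means over it, and Ahsg, Ttr and Fgb remained under it in both groups. Against all clusters, the KO mean of Alb lay at the 45.8 percentile and that of Afp at the 50.0 percentile, so neither was a bright signal. Each percentile places the brightness of a probe set and not the amount of a transcript. In signals this dim, RMA compresses differences, and no background per probe was used here.

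**Figure D3:**
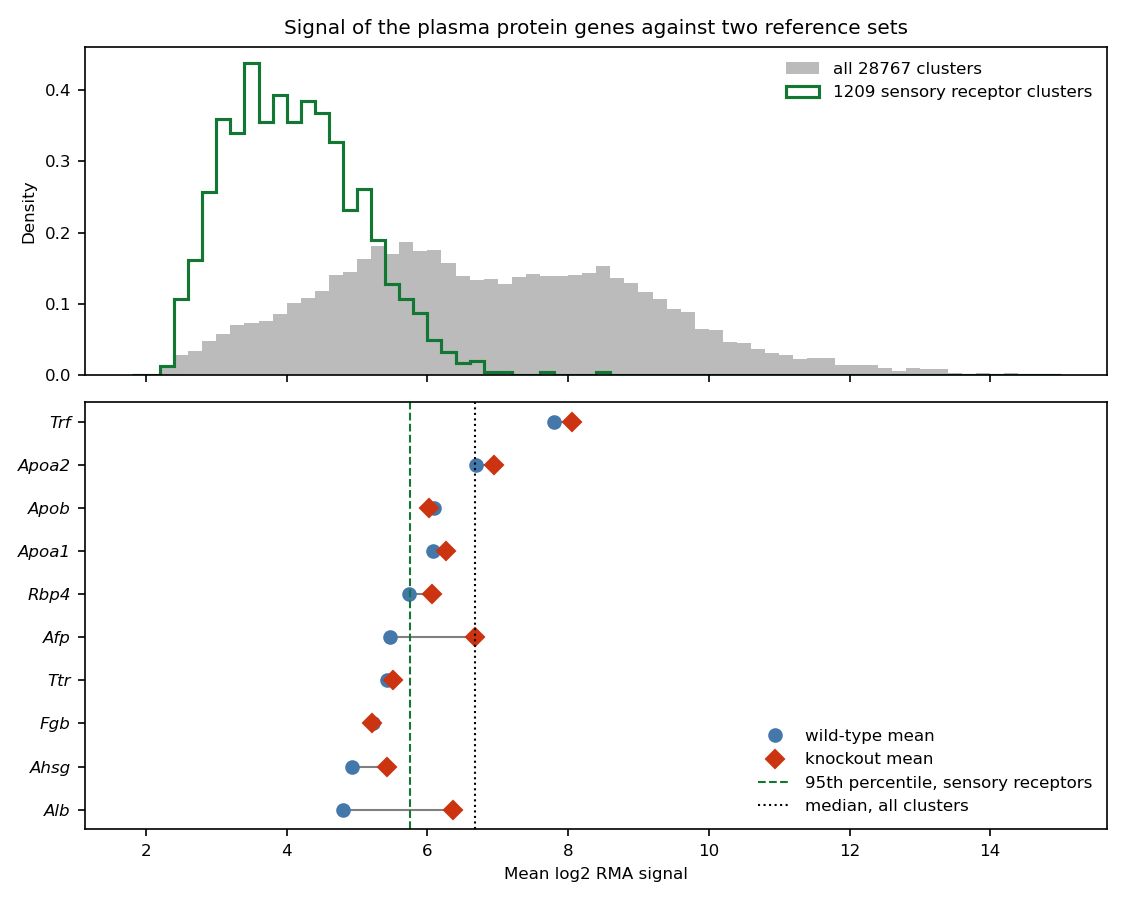
Top, distribution of the mean log2 RMA signal over 6 hearts for all clusters (grey) and for sensory receptor clusters (green line). Bottom, wild-type (blue) and knockout (red) means of the 10 genes, with the 95th percentile of the sensory receptors (5.76, dashed) and the median of all clusters (6.67, dotted). Alb, Afp and Rbp4 cross the dashed line from wild type to knockout, Rbp4 from just under it (5.74).

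Other plasma protein genes of the liver, which the choice did not use, differed little. Of 52 such genes listed 45 were measured, of which 26 had higher and 19 lower KO means, and their median difference was 0.01. Only 12 of the 45 lay above the 95th percentile of the sensory receptors, so most read at a dim level, where RMA compresses differences. Every KO heart lay above every WT heart for 2 of them, Serpinc1 (antithrombin) and Itih2 (a hyaluronan-binding inhibitor chain), or 4.44% against the 4.95% of all genes. In limma 0 of 45 passed the adjusted threshold, where the smallest adjusted p was 0.797, and 1 was higher at an unadjusted p under 0.05, as were 2.07% of all genes. That gene was Serpina6, which encodes the corticosteroid-binding globulin of plasma. Its signal was 4.31, 4.47 and 4.74 in WT and 4.70, 5.54 and 6.20 in KO replicates 1 to 3. The means of 4.51 in WT and 5.48 in KO hearts both lay under that percentile. The groups overlapped through KO replicate 1, and KO replicate 3 was the highest, as for Alb and Afp. The difference of 0.98 ± 0.34 (log2, SE; limma, adjusted p = 0.797) was 0.61 without KO replicate 3.

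The next genes of this list by p were Apoc1, an apolipoprotein of triglyceride-rich particles, at 0.27 ± 0.12 (log2, SE), and Itih2 at 0.32 ± 0.15. Both read highest in KO replicate 3, at 6.17 and 5.81, and without it their differences were 0.165 and 0.146. Among the brightest, Apoe, an apolipoprotein made by many cell types, differed by 0.08 ± 0.12 and Lcat, the enzyme that esterifies plasma cholesterol, by -0.23 ± 0.12 (-0.11 without KO replicate 1). None of these 4 passed limma's adjusted threshold.

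The protein-coding genes next to each of the 10 on the chromosome were compared as well, a choice made after the values of the members were known. Of 18 such neighbours measured, 8 had higher and 10 lower KO means, with differences from -0.30 for Tomm40l to 0.33 for Fcer1g, the neighbours of Apoa2 on either side. Every KO heart lay above every WT heart for 0 of the 18, against 4.95% of all genes, and below for 1, against 7.18%. With so few genes, no result about the neighbours is read from these counts. Alb and Afp are flanked by Ankrd17, an ankyrin repeat gene, and by Afm, the next albumin family gene. Ankrd17 differed by 0.08 ± 0.08 (log2, SE) and Afm by 0.02 ± 0.11. The neighbours of Ahsg, Dnajb11 and the fetuin gene Fetub, differed by -0.17 ± 0.13 and 0.04 ± 0.10. Without KO replicate 1 the differences of Dnajb11 and Tomm40l were -0.039 and -0.119. Apoc3 and Apoa4, which follow Apoa1 in its apolipoprotein cluster, differed by -0.09 ± 0.11 and 0.05 ± 0.11.

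Genes that mark the liver cell itself were examined next. Of 11 defining hepatocyte markers measured, 5 had higher and 6 lower KO means, the median difference was -0.02, and 9 lay under the 95th percentile of the sensory receptors. Their list mean, a mean of log2 signals, ran from 5.08 to 5.17 in WT and from 5.08 to 5.16 in KO hearts. Hnf4a, a transcription factor of hepatocytes and visceral endoderm, was 6.02 ± 0.17 (SD, n = 3) in WT and 6.04 ± 0.22 (SD, n = 3) in KO hearts. Mttp, which loads Apob with lipid, was 7.05 ± 0.20 and 6.99 ± 0.21 (SD, n = 3). Only Serpinc1 of the 11 (9.09%, against 4.95% of all genes) was higher in each KO heart than in any WT heart. Its lowest KO heart read 5.56 and its highest WT heart 5.55. The means differed by 0.18 ± 0.10 (SE), or by 0.115 without WT replicate 1. Ambp, the precursor of alpha-1-microglobulin, differed by 0.23 ± 0.12 with overlap, and by 0.11 without KO replicate 1. RMA values have no true 0, so a marker absent from the heart reads at a dim level. Hnf4a and Mttp lay above the 95th percentile of the sensory receptors, and the 9 other defining markers under it. The list mean was nearly the same in both groups.

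The wider list of 33 hepatocyte factors, enzymes and transporters had 16 higher and 17 lower KO means, with a median difference of -0.002. The list also held genes bright in these hearts, with 15 above the 95th percentile of the sensory receptors and a WT mean up to 9.65. Its lowest p belonged to Onecut2, a liver and pancreas transcription factor, at -0.26 ± 0.12 (SE), the urea cycle enzyme gene Otc at -0.23 ± 0.11 and the keratin gene Krt8 at 0.34 ± 0.19. Otc stood at -0.14 without WT replicate 3. Krt8 stood at 0.13 without KO replicate 1, and the other KO hearts lay within its WT range. Of 17 visceral endoderm markers, 11 had higher and 6 lower KO means, with a median of 0.03 (-0.02 without KO replicate 1). Of these 17, 10 lay above that percentile, with a WT mean up to 10.97. Whether the bright signals in these lists came from hepatocytes or endoderm was not tested. Ttpa, the vitamin E transfer protein gene, had the lowest p, at -0.27 ± 0.11 (-0.17 without KO replicate 2). Of 14 foregut and lung markers, 11 were higher and 3 lower by their means, with a median of 0.11. Krt19 was higher by 0.58 ± 0.28 (0.22 without KO replicate 1) and the lung factor gene Nkx2-1 by 0.24 ± 0.15 (0.09 without WT replicate 1). In limma 0 genes of these 3 lists passed (smallest adjusted p = 0.797), and at an unadjusted p under 0.05 only Ttpa did, in the lower direction, where 2.91% of all genes did. In bulk samples, more cells of a type and more RNA per cell cannot be told apart.

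**Figure D4:**
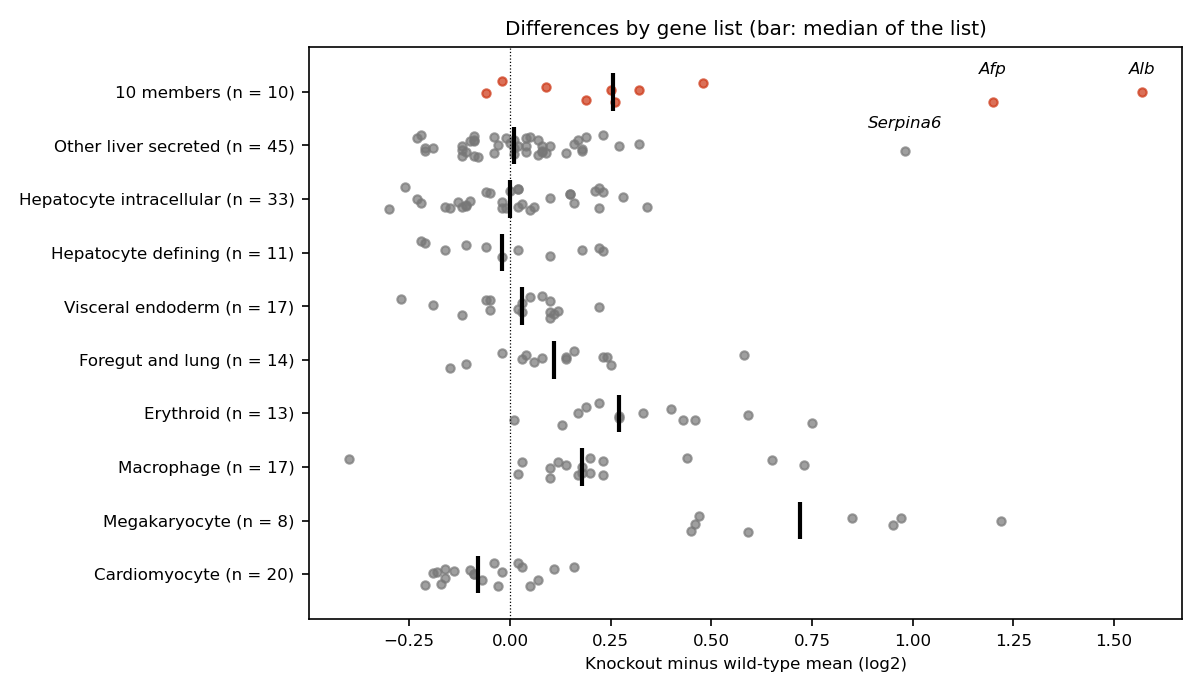
Knockout minus wild-type mean (x axis, log2) of each gene in the 10-gene set (red) and in other gene lists (grey), with the median of each list (bar). The liver lists centre near 0 (medians 0.01, -0.002 and -0.02), with Serpina6 at 0.98 standing off among the other liver secreted genes.

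Blood cell markers were highest in another heart than Alb and Afp. All 13 erythroid markers had higher KO means, with a median difference of 0.27, and -0.07 without KO replicate 1. Their list mean ran from 8.32 to 8.66 in WT hearts and was 9.63, 8.43 and 8.53 in KO replicates 1 to 3. Rhag, a red cell membrane protein gene, was higher by 0.75 ± 0.47 (SE), and by 0.12 without KO replicate 1. All 8 megakaryocyte markers had higher KO means, with a median of 0.72, and 0.12 without KO replicate 1. Their list mean ran from 6.70 to 6.83 in WT and was 8.75, 7.05 and 6.78 in KO replicates 1 to 3. The platelet chemokine gene Ppbp was higher by 1.22 ± 0.66 and the platelet tubulin gene Tubb1 by 0.85 ± 0.51 (0.34 and 0.16 without KO replicate 1). KO replicate 1, the highest heart for both lists, was the lowest KO heart for Alb and Afp, and KO replicate 3, the highest for Alb and Afp, was within the WT range for both.

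Of 17 macrophage markers 16 had higher KO means, with a median difference of 0.18. Every KO heart lay above every WT heart for 5 of 17, against 4.95% of all genes, and the list mean ran from 6.57 to 6.68 in WT and was 6.75, 6.92 and 6.82 in KO replicates 1 to 3. Cybb, a phagocyte oxidase subunit, was higher by 0.65 ± 0.11, Mpeg1, a pore-forming protein, by 0.73 ± 0.12 and Cd14, a co-receptor for bacterial lipopolysaccharide, by 0.44 ± 0.13. Lyz2, a lysozyme gene and the brightest marker of the list, went the other way, at -0.40 ± 0.17 (-0.245 without WT replicate 1). In limma 0 of 17 passed (smallest adjusted p = 0.797). At an unadjusted p under 0.05, 3 were higher and 1 lower, against 2.07% and 2.91% of all genes. The part of blood cells and macrophages in the values of the plasma protein genes was not tested.

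Without KO replicate 1, both other KO hearts lay above all WT hearts for 6 of the 10 genes, the former 5 and Apoa1. This was so for 8.26% of all genes. As the set was chosen on this contrast, its share is not read against the background. Of the 7 genes other than Alb, Afp and Ahsg, it held for 3, Trf, Apoa1 and Rbp4. The median difference of the 10 without KO replicate 1 was 0.27. For the 45 other plasma protein genes the count was 4 and the median -0.03.

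**Figure D5:**
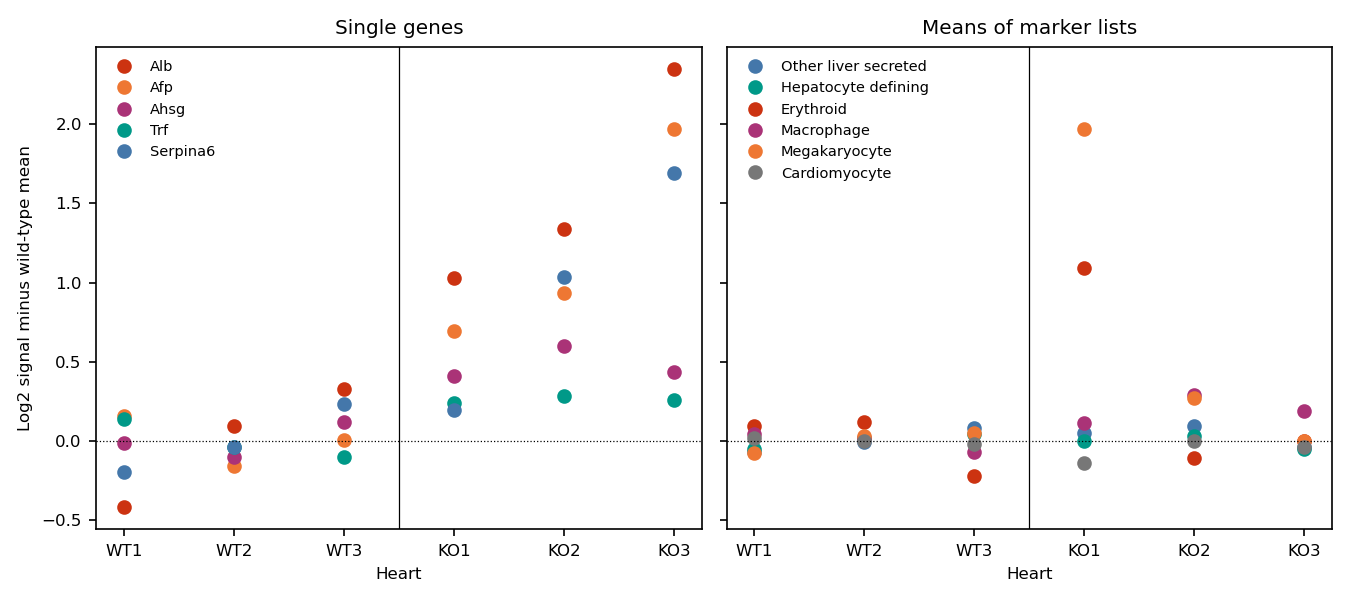
Log2 signal minus the wild-type mean (y axis) in each heart, for single genes (left) and for means of marker lists (right). Alb, Afp and Serpina6 are highest in knockout replicate 3 (Alb 2.35 above the wild-type mean), while erythroid and megakaryocyte means are highest in knockout replicate 1 (1.09 and 1.97).

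Receptors and partners that bind these plasma proteins were read from a further list. Of 15 measured, 11 had higher and 4 lower KO means, with a median of 0.14 (0.09 without KO replicate 1). Every KO heart lay above every WT heart for 3, among them Abca1 and Tfrc, against 4.95% of all genes. Lrp1, an endocytic receptor of lipoproteins, was higher by 0.37 ± 0.15 (SE) with overlap between the groups. The cholesterol exporter gene Abca1, which loads lipid onto Apoa1, was higher by 0.24 ± 0.09. Itgav, an integrin chain that binds fibrinogen, was higher by 0.26 ± 0.11 with overlap, and by 0.18 without KO replicate 1. Tfrc, the transferrin receptor, which is abundant on red cell precursors, was 9.98 ± 0.02 (SD, n = 3) in WT hearts and read 10.48, 10.05 and 10.09 in KO replicates 1 to 3. Its difference of 0.22 ± 0.13 was 0.09 without KO replicate 1. In limma 0 of 15 passed (smallest adjusted p = 0.797), and 2 were higher at an unadjusted p under 0.05, against 2.07% of all genes.

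Likeness of pattern was measured as the root mean square distance between profiles over the 6 hearts, each heart taken relative to the WT mean. It includes the difference between the groups on which Alb, Afp and Ahsg were chosen, so the ranks of these genes are a description only. The gene nearest to Alb among all named genes was Afp, at a distance of 0.39 (log2), and the next was Serpina6 at 0.46. Ahsg ranked 86 by this measure at 0.90, and Rbp4, Apoa2, Trf and Apoa1 ranked 532, 560, 695 and 985. Behind Serpina6 came the matrix genes Tnc (0.56) and Dpt (0.63) and the homeobox gene Meox1 (0.66), which were named after the values were seen. These 3 varied more in WT hearts than Alb, which itself had a WT range of 0.75. Relative to the WT mean, Tnc stood at -0.68 in replicate 2 and 0.76 in replicate 3, Dpt at -0.91 and 0.91, and Meox1 at -0.81 and 1.19. Nearest to the mean profile of all 10 genes, with genes of the lists left out, were Fam124b (0.05), Apbb1ip (0.08), Fsip2 (0.08), Tex11 (0.09) and Thbs2 (0.09). Fam124b, Apbb1ip, Fsip2 and Tex11 were dim, with mean signals of 5.15, 5.26, 4.31 and 4.42, against 8.44 for Thbs2. That mean profile stood at 0.27, 0.45 and 0.57 in KO replicates 1 to 3, with SDs over the 10 genes of 0.38, 0.43 and 0.86. Over the 7 genes without Alb, Afp and Ahsg it stood at 0.07, 0.24 and 0.13, with KO replicate 2 highest.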

How the data were processed

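Trizol was used for total RNA and the label was biotin, as the labels' protocols state. The deposited values are log2 signals per transcript cluster made by the authors with RMA, which corrects background, normalizes between arrays and summarises probes, per the submitters' processing notes. For RMA's version, the probe annotation and the genome build, the sources used here give nothing. Of 28767 clusters 21776 had 1 gene symbol, for 19933 genes, and the cluster with the highest mean stood for a gene. Symbols were updated through a gene table of assembly GRCm38.p6, which matched 21686 clusters.

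The groups were compared by limma 3.58.1 in R 4.3.3 (lmFit, eBayes, two-sided, no covariate, 3 against 3), with Benjamini-Hochberg adjustment over all clusters and no filter. The standard errors are limma's. The fit was tested on simulated data. An exact permutation test of 3 against 3 cannot go below p = 0.1. Hearts are called biological replicates in the design text, and no source says whether hearts were pooled, so p-values reflect only the variation among the 6 samples. The number of arrays limits the precision.

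The members and lists were chosen with earlier results of these data known. Genes named from a list are among its 3 with the lowest p or its 3 brightest, except Fga, Fgg, Apoc3, Apoa4, Fetub and others named as chosen after their values were seen. Promoter sequences are RefSeq's, build GRCm38.p6. Protein sequences were not used here. Alternatives are given in the closing section.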

Additional observations from a re-analysis of the deposited data

How the results depend on the processing

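Other fits used only brighter clusters, the mean over a gene's clusters, 3 other scalings (a repeat of quantile normalization, cyclic loess, array medians), a variance trend with robust moderation, weighted arrays, the replicate number as a block, or all hearts but 1. Of the 10 genes 8 kept the sign of their difference in all of these that gave them a value, and Apob and Fgb, both near 0, did not (-0.14 to 0.05 and -0.11 to 0.07). Alb ran from 1.18 to 1.84, Afp from 0.82 to 1.46, Ahsg from 0.42 to 0.58, Trf from 0.21 to 0.33 and Rbp4 from 0.27 to 0.41. In the fits that kept all 10, their median ran from 0.20 to 0.32, and over single hearts left out from 0.20 to 0.29. That of the other liver secreted genes ran from -0.03 to 0.08 over single hearts left out, and was -0.22 with the filter on dim clusters, which kept 3 of its 45 genes. That filter kept 2 of the 10, Trf and Apoa2, since the others lie under the median of all clusters. The median of the other liver secreted genes was -0.04 over the 12 above the 95th percentile of the sensory receptors, an alternative chosen after seeing the data. Clusters past the adjusted threshold were 0 in every fit except without knockout replicate 1, where 1 passed, so single hearts left out gave 0 to 1. With the replicate number as a block the median of the 10 was 0.26 and 0 clusters passed. Over all clusters, same-numbered hearts did not deviate together (correlations of -0.042, -0.026 and -0.056). This cannot exclude a link between same-numbered hearts in a part of the genes, which was not tested. Signs turned for 6 of 45 other named genes, all with small differences: Afm was -0.001 with quantile normalization again, -0.011 with array weights, and over single hearts left out Afm ran from -0.089 to 0.093, Hnf4a from -0.090 to 0.129, Mttp from -0.174 to 0.048, Apoa4 from -0.029 to 0.148, Apoe from -0.012 to 0.203 and Fetub from -0.051 to 0.107. The cause of these changes was not tested.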
